A study of Mus musculus with 10 samples.

Results

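The genes described here encode integrins and the laminin and collagen chains of the extracellular matrix, and they were followed across 10 lines of mouse esophageal squamous cell carcinoma. The choice was made with earlier results of these data known. It went by name, from gene symbols of the form Itga, Itgb, Lama, Lamb, Lamc or Col with a number. This gave 31 genes of the 12806 named genes in the count table: 11 integrin subunits (6 alpha and 5 beta), 6 laminin chains and 14 collagen chains. All lines shared the genotype Trp53R172H/- on a mixed background strain, so control lines carried the p53 mutant too. The groups were the primary line with a control hairpin (shCtrl, n = 1), the primary line with a hairpin against Trp53 (shTrp53, n = 1), control-hairpin lines grown from lung metastases (shCtrl-M, lines 376, 377, 378, 382 and 383) and Trp53-hairpin lines grown from lung metastases (shTrp-M, lines 384, 386 and 387). The metastatic lines were taken at week 8, expanded in culture and sorted for YFP before RNA was extracted. The labels do not say which lines came from which mouse, so the p-values below measure the spread between lines.

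Integrins are paired alpha and beta receptors that anchor a cell to its matrix and signal through adaptor proteins at the cytoplasmic tails. In squamous epithelium the basal cells rest on a basement membrane of laminin trimers and type IV collagen networks. The alpha6 and beta4 subunits bind, in hemidesmosomes, the laminin that holds the chains Lama3 and Lamb3, and type VII collagen ties that membrane to the tissue beneath.

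Promoter sequence is shown for 3 members on which the comparisons below turn. They are Itgb1, a beta chain shared by many integrins, Itgb5, a partner of the alphaV chain, and Col7a1, the chain of type VII collagen. Each is the 250 bases before the RefSeq start on GRCm38.p6, on the plus strand, at chr8:128685404-128685653 for Itgb1, chr16:33829415-33829664 for Itgb5 and chr9:108953336-108953585 for Col7a1. No annotated exon overlaps these windows. Capitals mark the GC box GGGCGG and the CCAAT box on either strand.
Itgb1: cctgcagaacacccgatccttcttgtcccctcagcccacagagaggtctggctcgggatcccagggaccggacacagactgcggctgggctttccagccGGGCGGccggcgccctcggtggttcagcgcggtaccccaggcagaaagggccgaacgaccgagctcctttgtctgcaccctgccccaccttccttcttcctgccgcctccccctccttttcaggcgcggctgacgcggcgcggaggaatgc
Itgb5: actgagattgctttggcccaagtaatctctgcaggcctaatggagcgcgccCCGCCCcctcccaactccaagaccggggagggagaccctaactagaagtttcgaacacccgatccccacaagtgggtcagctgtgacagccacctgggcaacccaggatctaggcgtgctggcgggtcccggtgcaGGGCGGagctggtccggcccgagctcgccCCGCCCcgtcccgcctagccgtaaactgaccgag
Col7a1: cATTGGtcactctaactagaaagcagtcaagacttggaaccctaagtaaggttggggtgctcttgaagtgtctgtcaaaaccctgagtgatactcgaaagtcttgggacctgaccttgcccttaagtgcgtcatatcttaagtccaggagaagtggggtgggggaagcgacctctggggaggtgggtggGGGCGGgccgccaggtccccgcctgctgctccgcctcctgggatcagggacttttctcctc
The Itgb1 window held 1 GC box, the Itgb5 window 3, and the Col7a1 window 1 GC box and 1 CCAAT box. Of all 32851 promoter windows of this length, 32.7% held a GC box and 33.8% a CCAAT box. No TATAAA or TGANTCA, searched on both strands, lay in these 3 windows, and a match or its absence describes only these letters.

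The libraries held 11057049 to 18431216 counts. Levels are given as CPM, a gene's share of the library's counts on a fixed scale, after TMM scaling over all 10 libraries. Trp53, the target of the hairpin, stood at 73.7 CPM in the shCtrl primary line and 6.54 CPM in the shTrp53 primary line, and it ranged from 94.5 to 131 CPM in shCtrl-M and from 5.16 to 7.36 CPM in shTrp-M. The summed level of 10 squamous epithelial markers, with Krt5, Krt14 and Trp63 among them, was 7089 to 10610 CPM in shCtrl-M. It was 4634 to 6678 CPM in shTrp-M, and 11320 and 8891 CPM in the shCtrl and shTrp53 primary lines. Krt14 made up most of the sum, at 5593 to 8017 CPM in shCtrl-M and 3816 to 5630 CPM in shTrp-M. Not every marker followed the sum: Dsg3 was at 36.1 and 45.15 CPM in the primary lines and 61.6 to 143 CPM in the metastatic lines. The part of these markers in the differences below was not tested. Of 10 fibroblast markers listed, the 3 analysed, Pdgfra, Dcn and Twist2, summed to 7.55 to 13.6 CPM in shCtrl-M and 12.0 to 17.1 CPM in shTrp-M. These 3 differed in direction. Twist2 was at 2.78 to 8.96 CPM in shCtrl-M and 6.38 to 15.6 CPM in shTrp-M. Dcn was at 0.63 to 6.99 and 0.39 to 4.73 CPM, and Pdgfra at 1.39 to 3.79 and 1.04 to 1.94 CPM.

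Per kilobase of the longest coding transcript, Itgb1 was the most abundant member, at 197 ± 11.6 CPM per kb (SD, n = 5) in shCtrl-M. Among alpha chains the laminin receptors led. Itga6 stood at 71.5 ± 11.3 CPM per kb and Itga3 at 54.8 ± 4.10 CPM per kb, and their ranges over the 5 lines overlapped. The alphaV chain Itgav, at 4.74 ± 1.19 CPM per kb, and the collagen receptor chain Itga2, at 3.13 ± 0.866 CPM per kb, were far lower. The beta chains Itgb6 (11.4 ± 3.19), Itgb5 (10.9 ± 2.23), Itgb7 (10.8 ± 7.36) and Itgb4 (9.74 ± 3.92 CPM per kb) did not differ beyond their spread.

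On the ligand side the hemidesmosome laminin chains Lama3 and Lamb3 were well above the other laminin chains measured. Per kilobase in shCtrl-M, Lama3 stood at 27.2 ± 4.79 and Lamb3 at 23.7 ± 5.88 CPM per kb (SD, n = 5), against 5.36 ± 1.79 for Lamb1, 2.64 ± 0.577 for Lamc1 and 1.03 ± 0.300 CPM per kb for Lama5, chains of the other main epithelial laminin. Coding transcripts of Lama3 run from 5.55 to 10.5 kb, so its level per length depends on which is made. Among collagens, the hemidesmosome collagen Col17a1 (33.7 ± 7.78 CPM per kb) and Col4a3 (33.5 ± 13.2 CPM per kb) were alike in level. Exons of Col4a3 share bases with a gene on the opposite strand, and how strand was counted is not stated, so its level may hold other reads. Col4a4, the usual partner of Col4a3 in a type IV trimer, stood at 1.40 ± 0.153 CPM per kb, and the common type IV chains Col4a1 and Col4a2 at 0.751 ± 0.406 and 0.691 ± 0.350 CPM per kb. Col1a1, a fibroblast collagen, did not exceed 1.61 CPM in any line.

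**Figure D1:**
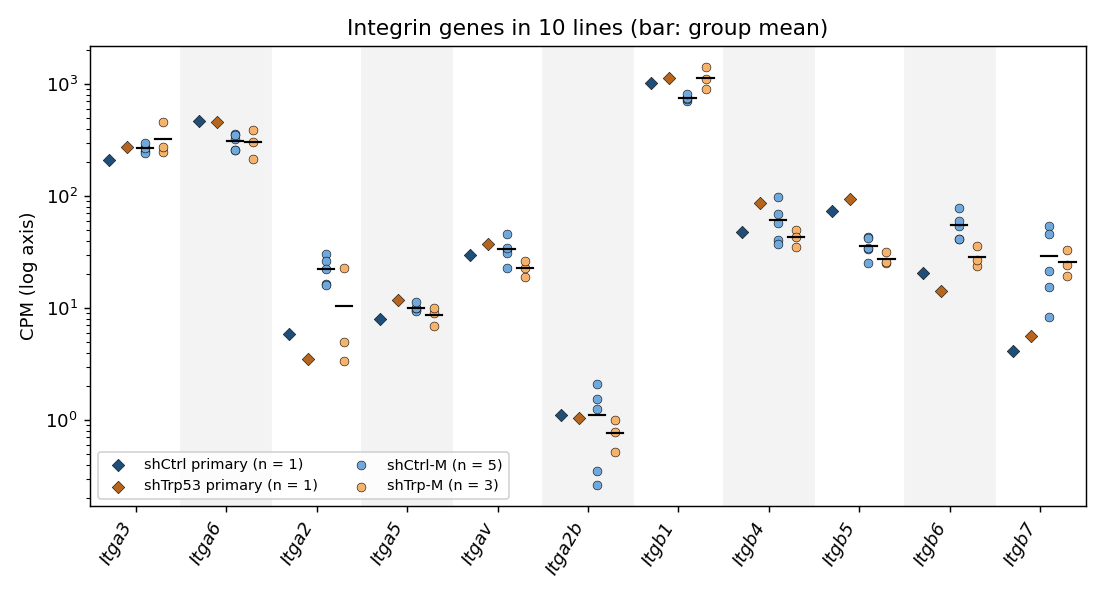
Level of the 11 integrin subunits in each of the 10 lines, in CPM on a log axis, by group; each point is a line and each bar a group mean. Itgb1 is at 702 CPM or above in every line, and Itgb6 is higher in the 5 shCtrl-M lines than in either primary line.

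The first comparison asked which members differed between shTrp-M and shCtrl-M, that is, with depletion of mutant p53 in metastatic lines. Of 30 members tested, 6 changed; Col1a1 was too low to test. Itgb1 and the type IV collagen chains Col4a1 and Col4a2 rose, while Itgb6 and the collagens Col7a1 and Col18a1 fell. These 6 are 20% of the members tested, near the 21.7% of all 12120 tested genes that passed the same threshold, an adjusted p under 0.05 in edgeR's quasi-likelihood test with Benjamini-Hochberg adjustment. By direction the background was 10.9% higher and 10.8% lower. The median log2 fold change was -0.23 over the members and -0.01 over all genes, with 23 of 30 members estimated below 0. In bulk RNA, fewer cells of a type and less RNA per cell cannot be told apart.

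Among the receptors, Itgb1 stood at 702, 760.2, 729, 754 and 821 CPM in shCtrl-M 376, 377, 378, 382 and 383 and at 904, 1421 and 1096 CPM in shTrp-M 384, 386 and 387. Every shTrp-M line was above every shCtrl-M line, and line 386 was the highest. The log2 fold change was 0.60 with an SE of 0.15 and an adjusted p of 0.0177 in edgeR's quasi-likelihood test. The edgeR adjusted p was 0.0793 with a term for lines 376 to 378, the lowest-numbered controls, and 0.122 with lines 382 and 383 as the only controls. Both primary lines, at 1013 and 1119 CPM, also lay above all shCtrl-M lines.

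Itgb6, which pairs with alphaV to bind fibronectin and to activate latent TGF-beta, moved the other way. It stood at 41.5, 54.2, 40.9, 78.0 and 60.2 CPM in the shCtrl-M lines and at 23.6, 26.6 and 36.0 CPM in the shTrp-M lines, with no overlap. It fell by 0.93 on the log2 scale (SE 0.24, edgeR adjusted p = 0.0212), and the edgeR adjusted p was 0.0879 without line 384 and 0.0785 without line 386. Its partner Itgav stood at 22.8 to 46.2 CPM in shCtrl-M and 18.9 to 26.4 CPM in shTrp-M, overlapping ranges, with a log2 fold change of -0.56 (SE 0.22) and an edgeR adjusted p of 0.089. Itgb5 overlapped too, at 25.1 to 43.4 CPM and 25.2 to 31.7 CPM, with an edgeR adjusted p of 0.177.

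Itga2, the alpha chain of the main collagen receptor, did not pass, and the shTrp-M lines split. It stood at 30.2, 16.4, 16.1, 26.3 and 22.3 CPM in shCtrl-M and at 3.37, 4.95 and 22.6 CPM in shTrp-M 384, 386 and 387. Lines 384 and 386 were below every shCtrl-M line, and line 387 was among them. The log2 fold change was -1.09 with an edgeR adjusted p of 0.165. Of 15 alternative fits in edgeR or DESeq2, 1 gave a call, that without line 387 (edgeR adjusted p = 0.0036). It leaves out the 1 shTrp-M line that lay among the controls. The highest adjusted p of these fits was 0.398. The laminin receptor chains gave no call: Itga6 was at 256 to 357 CPM in shCtrl-M and 216 to 392 CPM in shTrp-M, Itga3 at 244 to 295 and 245 to 456 CPM, and Itgb4 at 37.6 to 97.8 and 35.0 to 50.1 CPM. Their edgeR adjusted p-values were 0.966, 0.280 and 0.237.

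None of the 6 laminin chains passed edgeR's quasi-likelihood test, 0 had an unadjusted p under 0.05, and DESeq2 called 0. The hemidesmosome chains Lama3 and Lamb3 overlapped between the groups. Lama3 ranged from 219 to 354 CPM in shCtrl-M and from 172 to 384 CPM in shTrp-M, and Lamb3 from 88.7 to 162 CPM and from 75.6 to 131 CPM. Lamc1, a gamma chain of widely made laminins, was at 15.3 to 26.2 CPM and 10.4 to 19.3 CPM (edgeR adjusted p = 0.193). The estimates for the 6 laminins were below 0 for 4 and above 0 for 2, with a median of -0.14.

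**Figure D2:**
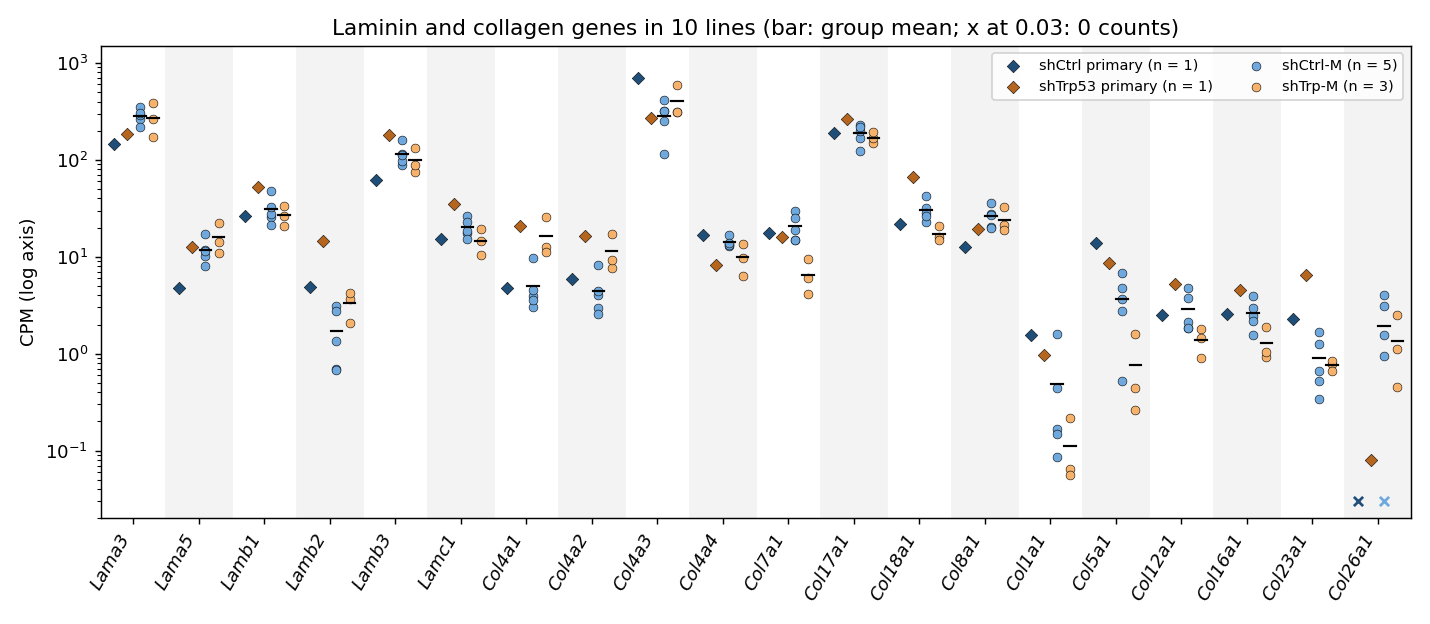
Level of the 6 laminin and 14 collagen chains in each line, in CPM on a log axis, by group; each point is a line, each bar a group mean and each cross a line with 0 counts. Col7a1 is lower in the 3 shTrp-M lines than in the 5 shCtrl-M lines, and Col4a1 and Col4a2 are mostly higher.

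Of the 4 type IV collagen chains, Col4a1 and Col4a2 rose. Col4a1 stood at 9.66, 3.91, 3.05, 3.62 and 4.59 CPM in the shCtrl-M lines and at 12.5, 25.8 and 11.3 CPM in the shTrp-M lines. The groups did not overlap, with line 376 the closest control and line 386 the highest. The log2 fold change was 1.73 (SE 0.39, edgeR adjusted p = 0.0137). Col4a2, whose product joins that of Col4a1 in the common type IV trimer, stood at 8.26, 4.08, 4.39, 2.95 and 2.59 CPM and at 7.67, 17.3 and 9.32 CPM. Line 376 lay above line 384, so these groups overlapped. The log2 fold change was 1.36 (SE 0.39, edgeR adjusted p = 0.0308). Without line 386 the log2 fold changes were 1.27 for Col4a1, 0.94 for Col4a2 and 0.42 for Itgb1, and none of the 3 passed, with edgeR adjusted p-values of 0.0682, 0.150 and 0.0737. Col4a2 also missed it without line 377, 378, 382 or 387, with edgeR adjusted p-values from 0.0512 to 0.0676. Col4a1 missed it with the term for lines 376 to 378 (edgeR adjusted p = 0.0534), and the Col4a2 estimate was 2.05 there. The annotated starts of Col4a1 and Col4a2 lie head to head and overlap by 22 bases, and the strand setting of the counting is not stated, so reads there cannot be told apart. Exons of Col4a3, Col5a1, Itgb4 and Lama3 also share bases with a gene on the opposite strand.

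Col4a3 and Col4a4 gave no call. Col4a3 ranged from 116 to 419.5 CPM in shCtrl-M and from 312 to 591 CPM in shTrp-M, with an edgeR adjusted p of 0.322. Col4a4 ranged from 12.9 to 16.8 CPM and from 6.38 to 13.5 CPM, with an edgeR adjusted p of 0.145. Line 376 had the lowest Col4a3 of any line and, within shCtrl-M, the highest Col4a1 and Col4a2.

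The 3 members that rose are the 3 tested members on chromosome 8. The 659 tested genes of that chromosome had a median log2 fold change 0.31 above that of all genes, and 188 of them (28.5%) were called higher and 25 lower. In each line, the median level of chromosome 8 genes relative to all genes and to the mean of the lines was -0.156 to -0.0837 in shCtrl-M and 0.16 to 0.208 in shTrp-M (log2), and -0.0626 and 0.102 in the shCtrl and shTrp53 primary lines. Less the chromosome's shift, the log2 fold changes were 1.42 for Col4a1, 1.05 for Col4a2 and 0.29 for Itgb1. Among tested genes within 10 places on either side, 6 of 19 neighbours of Col4a1 and 5 of 19 of Col4a2 were called higher and none lower. Col4a1 and Col4a2 lie side by side, so their neighbours are largely the same genes and these counts are not separate. Of 12 neighbours of Itgb1, 4 were called higher and none lower. The part of the chromosome-wide difference in these 3 results was not tested further. Genes of chromosome 13, which holds Itga2, were also shifted upward, by 0.32, while the Itga2 estimate was below 0.

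**Figure D3:**
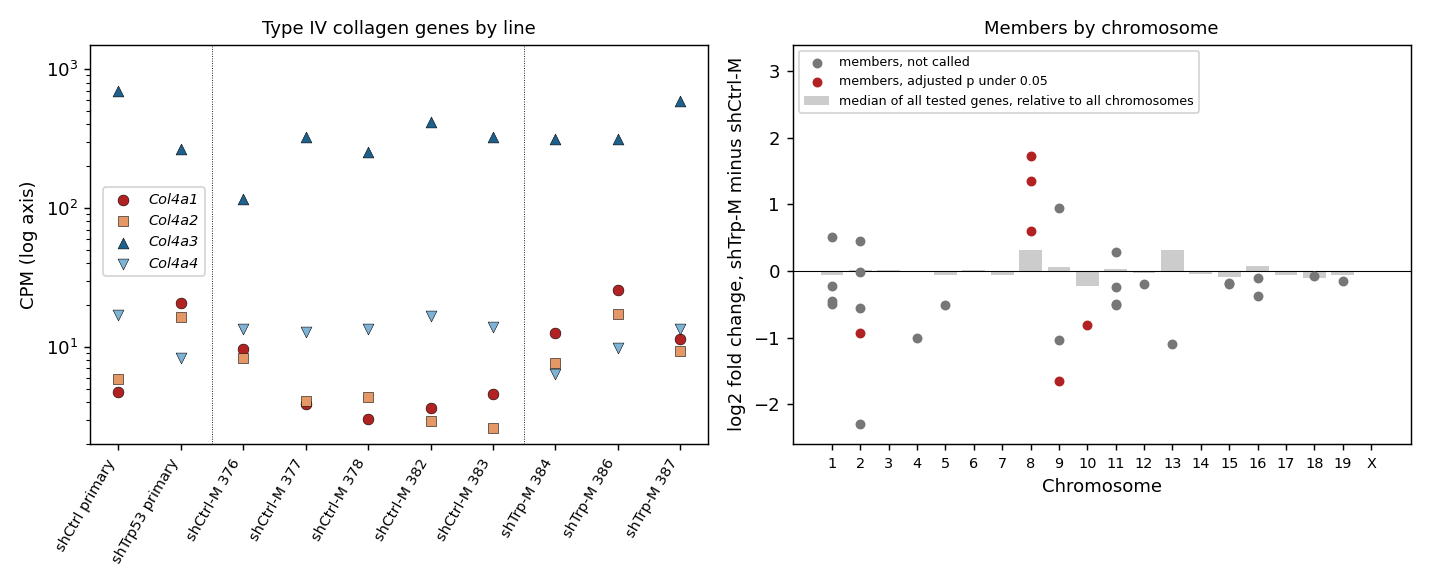
Left, CPM of the 4 type IV collagen chains in each line, on a log axis; right, log2 fold change of each tested member (points, red where called) by chromosome, with grey bars for the median of that chromosome's genes relative to all tested genes. The bars of chromosomes 8 and 13 reach 0.31 and 0.32 and that of chromosome 10 reaches -0.22, and the 3 points of chromosome 8 are all above its bar.

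Of the other collagens, 2 fell. Col7a1, the anchoring fibril collagen, stood at 29.5, 19.0, 14.7, 15.1 and 25.1 CPM in shCtrl-M and at 6.02, 4.10 and 9.55 CPM in shTrp-M. The groups were far apart, with the highest shTrp-M line below the lowest shCtrl-M line. It fell by 1.65 on the log2 scale (SE 0.33, edgeR adjusted p = 0.00826). Of the 6 members that changed, Col7a1 alone passed in all 8 fits that each left out 1 line, and it missed with lines 382 and 383 as the only controls (edgeR adjusted p = 0.0539).

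Col18a1, the basement membrane collagen from which endostatin is cut, stood at 42.4, 31.6, 22.9, 28.0 and 26.6 CPM in shCtrl-M and at 16.1, 15.0 and 20.8 CPM in shTrp-M, without overlap. It fell by 0.81 on the log2 scale (SE 0.21, edgeR adjusted p = 0.0246), and missed the threshold without line 377, 384 or 386 (edgeR adjusted p of 0.0564, 0.0918 and 0.0954), with a term for lines 376 to 378 (0.124) and with lines 382 and 383 as the only controls (0.0866). Its chromosome, 10, was shifted the same way by -0.22, with 118 of 567 tested genes called lower, and 8 of its 20 tested neighbours were called lower. Less that shift, the log2 fold change was -0.58.

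Col5a1, a minor chain of collagen fibrils, had the estimate furthest from 0 of the members tested, a log2 fold change of -2.30 (SE 0.76), and missed the threshold with an edgeR adjusted p of 0.0537. It stood at 3.64, 0.521, 6.77, 2.78 and 4.82 CPM in shCtrl-M and at 1.58, 0.260 and 0.444 CPM in shTrp-M. Line 377 alone among the controls lay within the shTrp-M range, and without it the edgeR adjusted p was 0.0262 (0.045 without line 384). In the other fits that each left out 1 line, the edgeR adjusted p was 0.0644 to 0.158. With the term for lines 376 to 378 it was 0.152, so the gain of a call depends on which line is left out. DESeq2 on all 8 lines called it, with an adjusted p of 0.00862, beside the same 6 members. The fibril-associated Col12a1, at 1.85 to 4.78 CPM and 0.911 to 1.79 CPM, did not overlap between the groups and gave an edgeR adjusted p of 0.103. Col16a1 overlapped, at 1.56 to 3.92 CPM and 0.932 to 1.89 CPM (edgeR adjusted p = 0.0917). In all, 2 members were higher and 4 lower without any overlap between the groups, against a background of 14.6% and 14.8% of all tested genes (29.4% in either direction). Col17a1, the transmembrane collagen of hemidesmosomes, was at 123 to 231 CPM and 149 to 194 CPM. Col8a1, Col23a1 and Col26a1, like the integrins Itga5, Itga2b and Itgb7 and the laminins Lama5, Lamb1, Lamb2, Lamb3 and Lamc1, gave no call either.

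**Figure D4:**
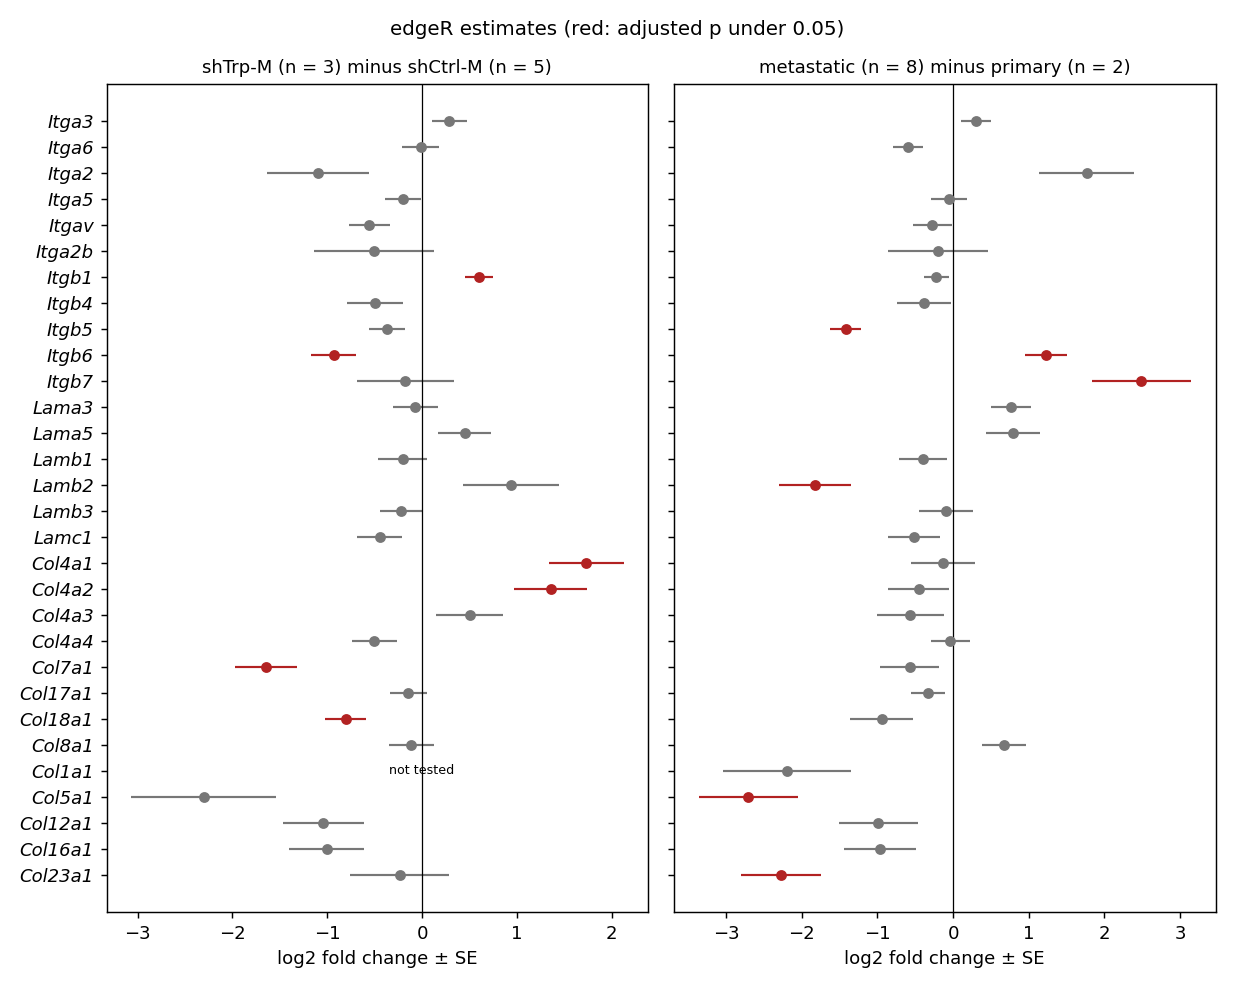
Log2 fold changes of the members between shTrp-M and shCtrl-M and between metastatic and primary lines, with bars of 1 SE and called members in red; Col26a1, at or near 0 counts in the primary lines, is left out. Col4a1, Col4a2 and Itgb1 lie above 0 in the knockdown comparison, and Itgb6 lies below 0 there and above 0 for site.

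Set beside their ligands, receptor and ligand chains were not all called together, and a chain that was not called may still have changed. For the pair of Itga6 and Itgb4 with the hemidesmosome laminin chains Lama3 and Lamb3, neither receptor nor ligand chains passed. For Itga3 and Itgb1 with the epithelial laminins, Itgb1 rose, and Lama3, Lamb3, Lama5, Lamb1 and Lamc1 did not pass. For Itga2 and Itgb1 with collagens, Itgb1, Col4a1 and Col4a2, all on chromosome 8, rose. The Itga2 estimate was -1.09 and was not called (edgeR adjusted p = 0.165). For the alphaV receptors, Itgb6 fell, and of their ligands osteopontin (Spp1) fell. Spp1 stood at 12.9, 5.56, 14.3, 5.73 and 6.74 CPM in shCtrl-M and at 1.58, 3.91 and 3.22 CPM in shTrp-M (log2 fold change -1.63, SE 0.42, edgeR adjusted p = 0.0224). Fibronectin (Fn1), the ligand of Itga5 with Itgb1, ranged from 28.8 to 50.1 CPM and from 10.6 to 35.2 CPM, with an edgeR adjusted p of 0.270. Tenascin-C (Tnc) ranged from 29.0 to 43.1 CPM and from 25.7 to 89.6 CPM, highest in line 386, with an edgeR adjusted p of 0.130.

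Other genes of the pathway were counted from lists drawn up for this tissue. Of 25 adaptors of integrin adhesions, 2 were higher and 3 lower in shTrp-M, beside 10.9% and 10.8% of all tested genes, the background for each list here; 5 of 25 is near it. Integrin-linked kinase (Ilk) fell, with means of 227 ± 31.5 CPM in shCtrl-M and 135 ± 22.6 CPM in shTrp-M (SD, n = 5 and n = 3). Kindlin-1 (Fermt1), an activator of beta chains in epithelium, fell too, with means of 119.9 ± 35.8 and 42.5 ± 25.5 CPM. Their log2 fold changes were -0.74 and -1.49, with edgeR adjusted p-values of 0.00995 and 0.019. The docking protein gene Bcar1, on chromosome 8, rose from 58.1 ± 9.18 to 114 ± 23.0 CPM (edgeR adjusted p = 0.00458). The others called were Itgb1bp1, higher, and the tensin Tns4, lower. Of 10 hemidesmosome and laminin receptor partners, none was higher and 1, the laminin receptor Bcam, was lower. None of 3 other collagen receptors was called. Of 10 other basement membrane genes tested, 2 were higher (Smoc2 and Tinagl1) and 3 lower (Pxdn, Hspg2 and Agrn). The proteoglycans perlecan (Hspg2) and agrin (Agrn) had estimates of -1.47 and -1.34 on the log2 scale. Smoc2, a matricellular protein gene, had means of 2.31 ± 0.400 and 31.8 ± 30.3 CPM, with line 386 the highest at 66.1 CPM. Of 22 collagen processing genes tested, 1 was higher (Pcolce) and 3 lower (Plod1, Plod2 and Fkbp10), with lysyl hydroxylase Plod2 at 5.17 ± 0.937 and 1.17 ± 0.446 CPM (log2 fold change -2.12, edgeR adjusted p = 0.0031).

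The second comparison set the 8 metastatic lines against the 2 primary lines, with the hairpin as a covariate. Of 31 members, 6 changed: Itgb6 and Itgb7 were higher in metastatic lines, and Itgb5, Lamb2, Col5a1 and Col23a1 were lower. These are 19.4% of the members, beside 14.8% of 12603 genes tested (7.14% higher and 7.65% lower). The median log2 fold change was -0.33 over the members and -0.03 over all genes. The primary side has 1 line per hairpin. Without the shTrp53 primary line none of the 6 passed, and leaving out any single metastatic line kept all but Lamb2, which missed without line 384 or 387 (edgeR adjusted p of 0.0505 and 0.0578). Without the shCtrl primary line, Itgb6, Itgb7 and Lamb2 missed, with edgeR adjusted p-values of 0.104, 0.146 and 0.0647.

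Among alphaV partners, Itgb5 and Itgb6 went opposite ways between primary and metastatic lines. Itgb5 stood at 73.8 and 94.9 CPM in the shCtrl and shTrp53 primary lines and, in the 8 metastatic lines, between 25.1 and 43.4 CPM. It was lower in every metastatic line (log2 fold change -1.42, SE 0.21, edgeR adjusted p = 0.00265). Itgb6 stood at 20.6 and 14.1 CPM in the primary lines and between 23.6 and 78.0 CPM in the metastatic lines, higher in all 8 (log2 fold change 1.23, SE 0.27, edgeR adjusted p = 0.0158). Itgav itself, at 29.7 and 37.0 CPM in the primary lines, lay within the metastatic range. Itgb7, best known from lymphocyte homing receptors, stood at 4.14 and 5.65 CPM in the primary lines and from 8.34 to 53.6 CPM in the metastatic lines (log2 fold change 2.49, SE 0.65, edgeR adjusted p = 0.0287). It was highest in lines 382 and 383. Cd68 was the 1 immune marker of 8 analysed, so the part of immune cells in the Itgb7 level was not tested.

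Among the laminin and collagen members every edgeR call between sites was lower in metastatic lines, while DESeq2 also called Lama3 and Col26a1 higher. Lamb2, a beta chain of non-hemidesmosome laminins, stood at 4.86 and 14.5 CPM in the primary lines and at 0.674 to 4.23 CPM in the metastatic lines (log2 fold change -1.82, SE 0.48, edgeR adjusted p = 0.028). Col5a1 stood at 13.7 and 8.72 CPM in the primary lines and at 0.260 to 6.77 CPM in the metastatic lines (log2 fold change -2.71, SE 0.66, edgeR adjusted p = 0.0215). Col23a1, a transmembrane collagen, stood at 2.27 and 6.54 CPM and at 0.337 to 1.68 CPM (log2 fold change -2.28, SE 0.53, edgeR adjusted p = 0.0182). Neither collagen overlapped between sites. Without any overlap, 2 members were higher and 5 lower, beside 10.6% and 11.3% of all genes (21.9% in either direction), Itga6 being the lower member that was not called.

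Other members missed the threshold between sites in edgeR, and DESeq2, which called 9 members, added Itga2, Lama3 and Col26a1 to the 6 (adjusted p of 0.00786, 0.0212 and 0.00997). Itga2 stood at 5.89 and 3.47 CPM in the primary lines and at 16.1 to 30.2 CPM in shCtrl-M, while shTrp-M 384 and 386 were at the primary level (log2 fold change 1.76, SE 0.63, edgeR adjusted p = 0.0764). Itga6 stood at 469 and 459 CPM in the primary lines, above every metastatic line (log2 fold change -0.60, edgeR adjusted p = 0.0595). Lama3 stood at 145 and 186 CPM in the primary lines and at 172 to 384 CPM in the metastatic lines (log2 fold change 0.77, edgeR adjusted p = 0.0718). Col26a1, a little-studied secreted collagen, had 0 and 1 counts in the primary lines and 0 in line 376, against 0.456 CPM or more in the other 7 metastatic lines (edgeR adjusted p = 0.0672).

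Of 13 other matrix ligands of integrins tested, none was higher and 5 were lower in metastatic lines, beside the background of 7.65%. Osteopontin (Spp1) had a log2 fold change of -2.78 (SE 0.47, edgeR adjusted p = 0.00521). Tgfb3, whose latent form binds alphaV integrins, stood at 7.70 and 7.43 CPM in the primary lines and at 0.0842 to 1.12 CPM in the metastatic lines. Nephronectin (Npnt), a ligand of alpha8 integrin, stood at 4.34 and 6.62 CPM and at 0.347 to 1.29 CPM. The other calls were the thrombospondins Thbs1 and Thbs2. Collagen processing genes counted 2 higher and 5 lower of 23, the 5 being Plod1, P4ha1, Crtap, P3h1 and P3h3, which modify collagen chains. Of the other lists, Ilk, Dag1, Fras1 and Ntn4 were lower and none was higher. Fn1 was not among the calls, with a log2 fold change of 0.83 and an edgeR adjusted p of 0.133.

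The third comparison set the shTrp53 primary line beside the shCtrl primary line, 1 library each, so no test was possible. Here many matrix chains were higher in the shTrp53 line. Past 2-fold were 11 members (35.5%), beside 9.84% of all 12806 genes: 9 higher, where the background was 7.49%, and 2 lower, where it was 2.35%. The median log2 ratio was 0.49 over the members and -0.01 over all genes. All 6 laminin chains had ratios above 0, with a median of 1.27, and 4 of them exceeded 2-fold. None of the 11 integrins did under TMM scaling. Scaling by library totals alone moved the median of all genes to 0.14, and 11 members were then higher and 1 lower: Itgb4 and Lamb1 passed 2-fold and Col4a4 no longer did.

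Lamb3 stood at 62.4 CPM in the shCtrl line and 180.4 CPM in the shTrp53 line, a log2 ratio of 1.53 with a 95% exact interval of 1.42 to 1.64 that covers counting error only. Lamc1 stood at 15.3 and 34.9 CPM (1.18, interval 0.95 to 1.42), Lama5 at 4.79 and 12.5 CPM (1.36, interval 0.98 to 1.81) and Lamb2 at 4.86 and 14.5 CPM (1.55, interval 1.19 to 1.99). Lama3 differed less, with a log2 ratio of 0.36. Col4a1 stood at 4.73 and 20.8 CPM (2.10, interval 1.75 to 2.53) and Col4a2 at 5.89 and 16.4 CPM (1.45, interval 1.11 to 1.85). Col4a3 and Col4a4 were the 2 that were lower: Col4a3 at 695.5 and 268 CPM (-1.37, interval -1.43 to -1.32) and Col4a4 at 17.0 and 8.32 CPM (-1.02, interval -1.37 to -0.69). The primary pair therefore differed in opposite directions for the 2 type IV gene pairs, each a pair of neighbours on its own chromosome. Chromosome 8 genes had a median log2 ratio 0.16 above that of all genes in this pair.

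Col18a1 stood at 21.6 and 66.6 CPM in the primary pair (1.62, interval 1.44 to 1.81), higher in the shTrp53 line, while the shTrp-M lines were below the shCtrl-M lines. Col23a1 (1.47, interval 0.94 to 2.15) and Col12a1 (1.02, interval 0.46 to 1.67) completed the 9 that were higher. Col7a1 stood at 17.7 and 16.1 CPM (-0.14, interval -0.41 to 0.13), where the metastatic groups were far apart. Itgb1 differed little, at 1013 and 1119 CPM (0.14, interval 0.11 to 0.18), as did Itga6 with a ratio of -0.03.

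**Figure D5:**
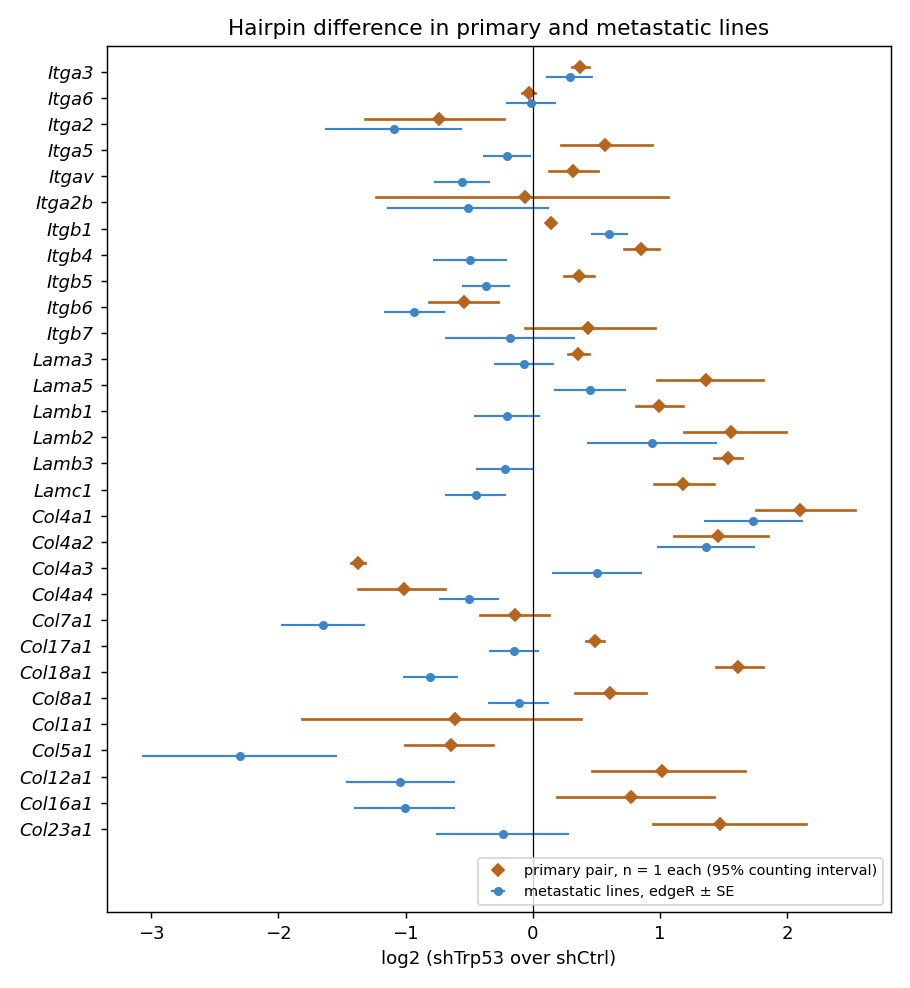
Log2 difference between Trp53-hairpin and control-hairpin lines for each member, as diamonds for the primary pair (1 library each, bars of the 95% counting interval) and circles for metastatic lines (3 against 5 lines, bars of 1 SE), with Col26a1 left out. Col4a1 and Col4a2 lie above 0 by both symbols, and Col18a1 and Lamb3 are above 0 in the primary pair and below 0 in the metastatic lines.

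Whether the hairpin difference itself differed between metastatic and primary lines was tested as an interaction over all 10 lines. No gene of 12754 passed in edgeR's quasi-likelihood test with Benjamini-Hochberg adjustment, so the members' count of 0 stands beside 0% of all genes. At an unadjusted p under 0.05 there were 7 of the 31 members (22.6%) and 1168 of all genes (9.16%). Col18a1 had the smallest of these, with an interaction of -2.43 on the log2 scale (SE 0.46, unadjusted p = 0.000268, edgeR adjusted p = 0.386). DESeq2 called 52 genes in the same contrast, Col18a1 among them (-2.39, SE 0.50, adjusted p = 0.0037). Lamb3 (-1.76) and Lamc1 (-1.64) had unadjusted p-values of 0.00443 and 0.00875 in edgeR's quasi-likelihood test and did not pass after adjustment. All 6 laminin estimates were below 0, with a median of -1.07, against -0.74 over the members and -0.04 over all genes. The primary-pair ratios, above 0 for all 6 laminins, enter these estimates, so this result is not separate from that pair's. The primary groups have 1 line each, so the spread in this test comes from the metastatic lines.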

How the data were processed

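RNA was measured by SMART-Seq v4 sequencing in 10 lines. The authors' deposited table holds raw read counts per gene; STAR 2.5, Cufflinks 2.2.1, DESeq2 and the build mm9 appear in the submitters' processing notes, with no role for any. How strand and multi-mapping reads were handled is not stated there. In all, 18 entries with a number in place of a gene name (0.332 to 0.491% of counts) were left out, and 2 matches to the gene rule are not reported here. No libraries were identical. The members and lists were chosen with earlier results of these data known.

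Counts were filtered with filterByExpr, scaled by TMM and tested with edgeR 4.0.16 (glmQLFit, robust, and glmQLFTest) in R 4.3.3, with Benjamini-Hochberg adjustment over all genes tested and a threshold of 0.05. The SE is the log2 fold change divided by the square root of F. The 2 primary lines were compared by CPM with a prior count of 2 and exact 95% binomial intervals, which cover counting error only. Named with values were members with an adjusted p under 0.05 and a mean of at least 1 CPM, up to 3 of the most abundant members of each role, receptors and ligands of the pairs, and members far apart in the primary pair; called list genes with the largest changes were named too, and further ones were named after their values were seen. Lengths, neighbours and exons are from GENCODE on GRCm38 and promoters from RefSeq, found for 23 of 31 members.

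On simulated data the knockdown test (12200 genes) called 62 of 68 genes made to differ 4-fold and 32 of 73 made to differ 2-fold. The site test called 20 of 73 at 2-fold, and the interaction test (12675 genes) 17 of 69 at 4-fold and 1 of 57 at 2-fold. Far fewer genes were made to differ than edgeR called between the metastatic groups or between sites, so these rates need not hold for the data. Alternatives were DESeq2 1.42.0, another scaling, no filter, leaving out each line, a term for lines 376 to 378, controls 382 and 383 only, and each hairpin alone.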

Additional observations from a re-analysis of the deposited data

Results flagged for a closer look

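In shCtrl-M, the 1 group of 4 to 10 lines, 31 members were examined for a line far from the other 4, and 2 had such a line; chance gives about 1 in 20. Both times it was line 376: Col4a1 stood at 9.66 CPM there, against 3.05 to 4.59 CPM in the other 4 lines, and Col1a1 at 1.61 CPM, against 0.0868 to 0.446 CPM. No member's hairpin difference passed the test of a difference between metastatic and primary lines in edgeR's quasi-likelihood fit.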

How the results depend on the processing

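Between shTrp-M and shCtrl-M 6 members were called, against 7 with DESeq2, 3 with a term for lines 376 to 378 (Itgb6, Col4a2 and Col7a1), 3 with lines 382 and 383 as the only controls (Itgb6, Col4a1 and Col4a2), and 1 to 6 when each line was left out, with 1 (Col7a1) without shTrp-M 386. Between sites 6 members were called, against 9 with DESeq2 and 5 to 9 when each metastatic line was left out. A fit on 1 hairpin has 1 primary line, so only its estimates are given. All 6 kept their direction with shCtrl lines only and with shTrp53 lines only. In that order the log2 fold changes were -1.05 and -1.75 for Itgb5, 1.42 and 1.06 for Itgb6, and 2.80 and 2.21 for Itgb7. They were -1.49 and -2.10 for Lamb2, -1.88 and -3.50 for Col5a1, and -1.31 and -3.05 for Col23a1. The 0 in the interaction became 1 with DESeq2 (52 of all genes, against 0). Of all genes, 2634 were called between the metastatic groups, 965 with the term, 614 with the 2 controls and 1154 to 3239 when each line was left out. Between sites 1864 were called, 2816 with DESeq2 and 1036 to 2687 when each metastatic line was left out. When each line was left out, the Col18a1 site estimate of -0.94 ranged from -1.94 to 0.50. These ends were the fits without the shCtrl and without the shTrp53 primary line. The estimate was 0.49 with shCtrl lines only and -1.91 with shTrp53 lines only, so it differed in direction between hairpins. The cause was not tested. Hairpin and line number cannot be told apart, since the Trp53-hairpin metastatic lines carry the highest numbers. Over all alternatives, 321 member fold changes kept direction and call, 15 gained a call, 36 lost one and 2 reversed; for members with an unadjusted p of 0.05 or more only the call was followed, which stayed in 569 and was gained in 3. Members near 1 CPM, such as Itga2b and Col1a1, are limited by depth. This holds for members called or named above too. Col23a1 had 4 to 24 counts in the metastatic lines, and Lamb2 had 8 counts in shCtrl-M 377 and in shCtrl-M 382. Col5a1 had 22, 4 and 8 counts in shTrp-M 384, 386 and 387. No paired analysis was possible because the metastatic groups share no line numbers and each primary group is 1 line.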
